A study of Homo sapiens with 3 samples.

Results

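The RNA sequencing library of Hep3B cells overexpressing HKR3 was compared directly with the library labelled siTERT, so 2 of the 3 libraries of the study enter each difference. Hep3B is a cell line derived from a human hepatocellular carcinoma. The HKR3 library came from cells transfected with a pcDNA3.1 plasmid encoding HKR3, the older name of ZBTB48. The library labelled siTERT came from cells given a small interfering RNA that targets TERT, and the control label names only the transfection reagent Fugene beside the words NT and Empty. All cells were transfected transiently with Fugene HD, and the time between transfection and RNA extraction and the share of cells transfected are not stated in the labels. Of 19869 genes listed, 10974 had a mean FPKM (fragments per kilobase of transcript, scaled for library size) of at least 1 over the 3 libraries and were compared. Each group had 1 library, so every value is a single measurement without a replicate check. A difference of at least 2-fold on the log2(FPKM + 1) scale was used as a rule of size and not as a test.

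ZBTB48 is a zinc finger protein with a BTB domain that binds telomeric repeats and some gene promoters. TERT is the catalytic subunit of telomerase, the enzyme that adds those repeats, and it is switched on again in most liver cancers. Immediate early genes such as JUN, FOS and ATF3 encode transcription factors that need no new protein to be switched on by growth factors, cytokines or stress, and many of their messages are short-lived. CDKN1A encodes p21, an inhibitor of cyclin-dependent kinases that slows the cell cycle.

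Below, levels are in FPKM in the order control, library labelled siTERT, HKR3 library, and each log2 difference is the HKR3 library minus the library labelled siTERT on the log2(FPKM + 1) scale. ZBTB48 itself was at 4.91, 4.89 and 2842 FPKM, a log2 difference of 8.91. The HKR3 library alone was high, and transcripts of the plasmid cannot be told apart from endogenous ones. TERT was at 4.69, 5.37 and 4.25 FPKM, a log2 difference of -0.28. TERT was thus not lower in the library labelled siTERT than in the other libraries, so the differences below describe a library by its label and not by a measured loss of TERT RNA.

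Summed FPKM was 596536, 579410 and 535516, and ZBTB48 made up 0.531% of the sum in the HKR3 library. The 10 hepatocyte markers were all among the genes compared, and their summed level was 12983, 12526 and 8896 FPKM. None of the 8 fibroblast or 6 listed endothelial markers reached the expression minimum. Of 8 immune markers 4 were at 0 in all libraries, PTPRC among them, while LYZ, the gene of lysozyme, was at 392, 392 and 210 FPKM. In bulk RNA, fewer cells expressing a gene and less RNA per cell cannot be told apart. The part that the lower hepatocyte marker level had in other differences was not tested.

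Of the 10974 genes, 602 (5.49%) lay at least 2-fold apart, 451 (4.11%) higher and 151 (1.38%) lower in the HKR3 library than in the library labelled siTERT. Higher genes thus made up 74.9% of those apart, and the median over all genes was -0.01. At least 4-fold apart were 55 higher and 4 lower genes, and 77.4% of all genes differed by less than 1.5-fold. Scaling the libraries to the same sum shifted the median by 0.10 and gave 587 higher and 98 lower genes, so that 85.7% of those apart were higher. The rule's edge was crowded. RBM48 was just inside it, at 4.75 FPKM in the library labelled siTERT and 10.5 in the HKR3 library, and CLCN6 just outside, at 4.61 and 10.2. On the lower side BIN1 was just inside, at 98.6 and 48.8 FPKM, and COL9A2 just outside, at 6.42 and 2.71.

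**Figure D1:**
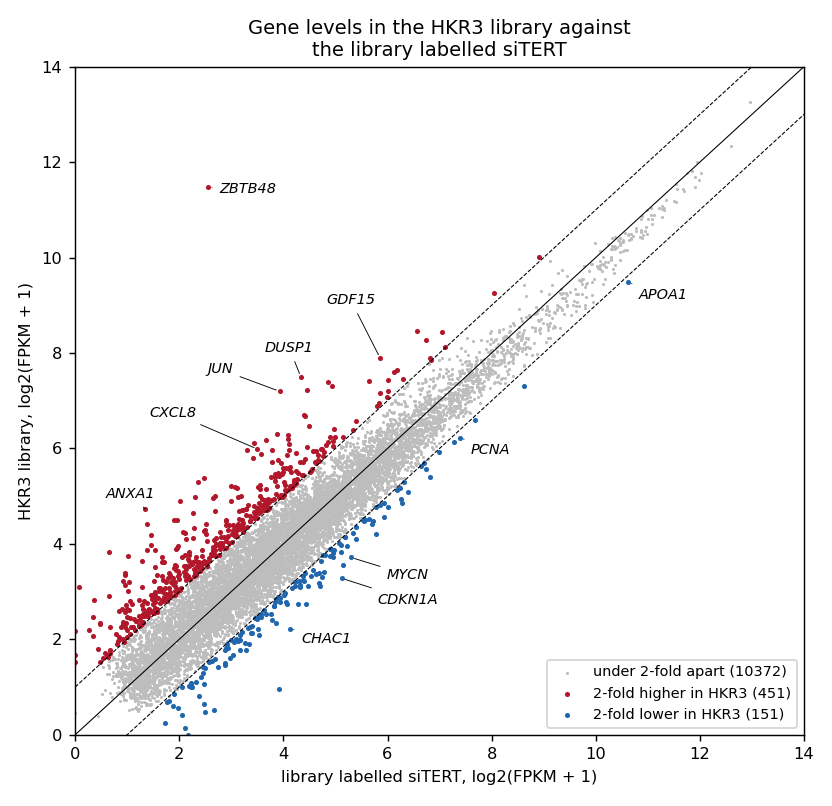
Level of each of 10974 genes in the library labelled siTERT (x axis) and the HKR3 library (y axis), both as log2(FPKM + 1), with the line of equality and dashed lines at 2-fold. The 451 genes above the upper dashed line spread farther from it than the 151 below the lower one, and ZBTB48 stands alone at the top.

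Promoter sequence is shown for 6 of the genes described below, 5 that were higher and 1 that was lower in the HKR3 library, so that the letters beside their start sites can be read with their levels. They were chosen after their values were seen, because each holds a motif of the factors named in the gene groups below. Each window covers the 150 bases before the RefSeq start site in GRCh38.p14, 5′ to 3′ on the gene's strand, with motif matches in capitals.
CXCL8: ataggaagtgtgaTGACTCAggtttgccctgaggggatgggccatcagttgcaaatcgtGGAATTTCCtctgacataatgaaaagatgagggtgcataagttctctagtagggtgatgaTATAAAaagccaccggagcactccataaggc
CXCL2: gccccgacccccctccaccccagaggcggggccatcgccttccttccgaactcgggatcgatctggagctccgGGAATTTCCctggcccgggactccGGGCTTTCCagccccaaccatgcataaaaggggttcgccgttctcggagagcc
TNFAIP3: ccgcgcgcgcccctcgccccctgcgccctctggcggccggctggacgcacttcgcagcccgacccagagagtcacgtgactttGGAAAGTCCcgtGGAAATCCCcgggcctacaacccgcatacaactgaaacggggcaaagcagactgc
DUSP1: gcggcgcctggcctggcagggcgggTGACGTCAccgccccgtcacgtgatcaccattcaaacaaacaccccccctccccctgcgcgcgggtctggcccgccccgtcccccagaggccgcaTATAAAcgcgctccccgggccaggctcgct
PPP1R15A: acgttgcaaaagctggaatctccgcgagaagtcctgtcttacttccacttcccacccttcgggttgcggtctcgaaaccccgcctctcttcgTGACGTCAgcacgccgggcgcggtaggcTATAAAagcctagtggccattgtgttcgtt
E2F2: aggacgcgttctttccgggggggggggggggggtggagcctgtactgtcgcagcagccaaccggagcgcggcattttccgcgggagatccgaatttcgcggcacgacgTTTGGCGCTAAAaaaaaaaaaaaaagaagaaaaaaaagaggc
CXCL8 lies at chr4:73740419-73740568 (+), CXCL2 at chr4:74099196-74099345 (-), TNFAIP3 at chr6:137867109-137867258 (+), DUSP1 at chr5:172771196-172771345 (-), PPP1R15A at chr19:48872271-48872420 (+) and E2F2 at chr1:23531234-23531383 (-).

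Both strands were searched for the AP-1 letters TGANTCA, the kappa-B letters GGNNTTTCC, the cyclic AMP response element TGACGTCA, the TATA letters TATAAA and the E2F letters TTTNGCGC. AP-1 is the dimer that JUN forms with FOS or ATF proteins, and kappa-B sites are bound by REL proteins such as RELB. The CXCL8 window held the AP-1 letters 137 to 131 bases before the start, the kappa-B letters at 91 to 83 and the TATA letters at 31 to 26. CXCL2 held the kappa-B letters at 77 to 69 and at 53 to 45, and TNFAIP3 held them, on the other strand, at 67 to 59 and at 55 to 47. The cyclic AMP response element lay at 125 to 118 in DUSP1 and at 58 to 51 in PPP1R15A, each with TATA letters at 30 to 25. E2F2 held the E2F letters at 42 to 35 and at 38 to 31, on opposite strands and overlapping each other. Among the 8980 compared genes with a RefSeq window, the share holding each motif within 250 bases before the start was 3.42% for AP-1, 5.96% for kappa-B, 3.18% for the cyclic AMP response element, 5.24% for TATA and 2.69% for E2F. Windows were at hand for 78.9% of the higher and 76.2% of the lower genes, under the 80% set for such a check, so a comparison of motif shares between those sets is void. A match describes these letters and is not evidence of binding.

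Immediate early transcription factors were mostly higher in the HKR3 library. Of 21 compared, 12 were at least 2-fold higher than in the library labelled siTERT and none lower, against 4.11% higher among all genes, and their median log2 difference was 1.23. JUN was at 8.49, 14.2 and 146 FPKM, a log2 difference of 3.27. It was 9.63-fold higher in the HKR3 library on the FPKM + 1 scale, and the library labelled siTERT was itself above the control. ATF3, a stress-induced partner of JUN, was at 2.25, 4.17 and 38.4 FPKM, a log2 difference of 2.93 with the same order of the libraries. FOSB, another partner of JUN, was at 1.19, 1.05 and 8.23 FPKM, a log2 difference of 2.17. KLF10, a zinc finger repressor induced early by TGF-beta, was at 9.58, 9.76 and 68.1 FPKM, a log2 difference of 2.68. For FOSB and KLF10 the control and the library labelled siTERT were close to each other and the HKR3 library was apart. Named after their values were seen, FOS at 2.72, 3.32 and 17.9 FPKM was also 2-fold higher, whereas MYC, the growth-promoting transcription factor, was at 57.4, 62.0 and 73.4 FPKM and JUND at 119, 150 and 187 FPKM. MYC and JUND had log2 differences of 0.24 and 0.32, far below that of JUN. The group's median GC content was 57.7%, above the 48.7% of all genes.

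Feedback inhibitors of the same kinase pathways differed among themselves. Of 15 MAP kinase phosphatases and RAS-ERK feedback inhibitors, 6 (40.0%, against 4.11% of all genes) were at least 2-fold higher in the HKR3 library and none lower, with a median of 0.27. DUSP1, which removes phosphate from JNK, p38 and ERK in the nucleus, was at 17.8, 19.2 and 180 FPKM, a log2 difference of 3.16. DUSP8, a phosphatase of JNK and p38, was at 0.53, 1.61 and 20.5 FPKM, a log2 difference of 3.04. DUSP10 was at 0.85, 1.62 and 13.63 FPKM and DUSP16 at 14.1, 15.97 and 72.2 FPKM, with log2 differences of 2.48 and 2.11. These last also act on the stress-activated kinases JNK and p38. Named after their values were seen, DUSP6, a phosphatase of ERK, was at 37.9, 47.2 and 29.04 FPKM, and SPRY2, an inhibitor of receptor tyrosine kinase signalling, at 59.5, 72.6 and 43.9 FPKM. For both, the HKR3 library was the lowest of the 3, with log2 differences of -0.68 and -0.71. The 4 members of the EGF receptor family and its ligands that were compared all lay below 0, at most 1.43-fold lower for ERBB2, a receptor tyrosine kinase, at 39.9, 29.4 and 20.3 FPKM.

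Genes that shorten the life of messenger RNA or slow growth were higher as a group. All 8 compared were above 0, against 49.4% of all genes, and their median was 1.13. In the HKR3 library 5 of them (62.5%, against 4.11%) were at least 2-fold higher. ZFP36, which binds AU-rich elements and brings the message to deadenylation, was at 10.0, 12.7 and 51.4 FPKM, a log2 difference of 1.94. Its paralog ZFP36L1 was at 28.8, 30.4 and 83.7 FPKM, a log2 difference of 1.43. BTG2, which links to the deadenylase complex, was at 2.68, 3.31 and 12.6 FPKM, a log2 difference of 1.66. In all 3 genes the control and the library labelled siTERT were close and the HKR3 library was high. The nonamer TTATTTATT, a core AU-rich element, was found in the 3′ UTR of 16.96% of the higher genes (76 of 448), 6.00% of the lower genes (9 of 150) and 8.26% of all genes with a 3′ UTR (902 of 10926). Long 3′ UTRs hold it more often, so shares were also taken by length. In 3′ UTRs of 500 to 1000 bases the share was 15.7% of 89 higher genes and 4.10% of all genes. From 2000 to 4000 bases it was 24.7% of 93 higher genes and 12.9% of all genes, and above 4000 bases 32.1% of 53 and 27.3%. The higher genes were thus above all genes in each of these length classes, by less in the longest.

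Inhibitors and subunits of NF-kB, the transcription factor of inflammatory signalling, all lay above 0. Of 13 compared, 2 (15.4%, against 4.11% of all genes) were at least 2-fold higher in the HKR3 library and none lower, and the group median was 0.60. TNFAIP3, which encodes the ubiquitin-editing inhibitor A20, was at 2.15, 3.82 and 24.2 FPKM, a log2 difference of 2.39. RELB, a subunit of the noncanonical pathway, was at 3.82, 7.78 and 30.7 FPKM, a log2 difference of 1.85. In both, the library labelled siTERT lay between the control and the HKR3 library. Among chemokines, cytokines and adhesion molecules, 11 of 21 were compared and 3 of those (27.3%) were at least 2-fold higher, and the median was 0.82. CXCL8, the neutrophil chemoattractant interleukin 8, was at 1.96, 10.3 and 62.4 FPKM, a log2 difference of 2.49. CXCL2 and CXCL3 bind the same receptor as CXCL8, with CXCL2 at 1.501, 3.06 and 28.8 FPKM and CXCL3 at 2.27, 3.90 and 19.2 FPKM. All 3 chemokines kept the order control, labelled siTERT, HKR3. The chemokine group's median was 0.20 when genes below the expression minimum were also counted.

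Ligands of the TGF-beta superfamily and targets of YAP and TAZ, the effectors of the Hippo pathway, held several of the larger differences. Of 15 TGF-beta genes 5 (33.3%, against 4.11% of all genes) were at least 2-fold higher and none lower, and the 5 were TGFB2, BMP2, BMP4, GDF15 and SMAD3. TGFB2 was at 2.25, 1.76 and 14.6 FPKM, a log2 difference of 2.502. GDF15, a stress-induced hormone that curbs appetite, was at 39.8, 57.0 and 237 FPKM, a log2 difference of 2.04. BMP2, a bone morphogenetic protein, was at 13.63, 21.5 and 87.1 FPKM, a log2 difference of 1.97. The group's median was 0.44, and 7 of the 15 lay below 0. Of 13 YAP/TAZ targets 4 (30.8%) were at least 2-fold higher, and the median was 0.75. CCN1, a matricellular protein, was at 14.3, 12.7 and 61.3 FPKM, a log2 difference of 2.18. CCN2, its close relative and named after its values were seen, was at 124, 102 and 104 FPKM, with a log2 difference of 0.03. CCN1 and CCN2 therefore differed from each other.

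**Figure D2:**
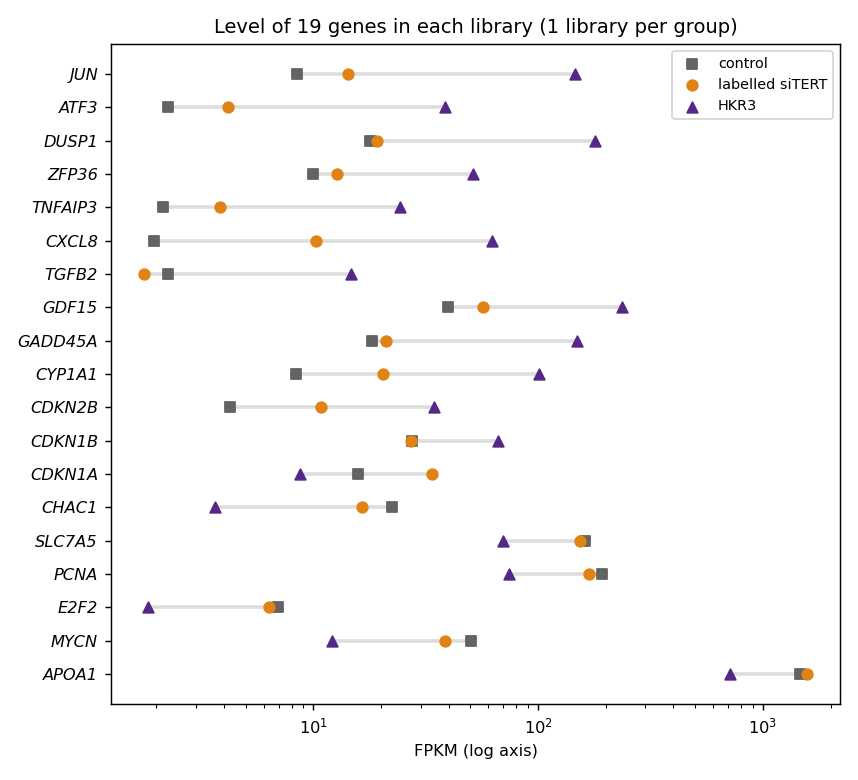
FPKM on a log axis of 19 genes in the control (squares), the library labelled siTERT (circles) and the HKR3 library (triangles), 1 library per group. For most genes the square and the circle lie near each other, while for JUN, ATF3, TNFAIP3, CXCL8, CYP1A1 and CDKN2B the circle lies between the other symbols, and for CDKN1A the square does.

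The highest genes outside those groups had varied functions. ANXA1, a phospholipid-binding protein that dampens inflammation, was at 0.80, 1.54 and 25.6 FPKM, a log2 difference of 3.39. RBM24, an RNA-binding protein of muscle splicing, was at 0.56, 0.57 and 13.2 FPKM, a log2 difference of 3.17. DLX2, a homeodomain transcription factor of the forebrain and branchial arches, was at 0.24, 0.06 and 7.55 FPKM, a log2 difference of 3.01. MXD1, which competes with MYC for its partner MAX, was at 3.07, 3.90 and 30.7 FPKM, a log2 difference of 2.69. Its relative MXD3 went the other way, at 17.97, 18.5 and 5.72 FPKM, a log2 difference of -1.54. VNN3P, annotated as a pseudogene of the vanin family, was at 1.63, 4.55 and 40.9 FPKM, a log2 difference of 2.92. ANXA1, RBM24 and DLX2 were under 2 FPKM in both other libraries.

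Genes of foreign compound and oxidant defence were mixed. CYP1A1, the cytochrome P450 that oxidises aromatic hydrocarbons, was at 8.41, 20.3 and 101 FPKM, a log2 difference of 2.26. AHR, the receptor that induces it, was at 14.8, 23.5 and 51.4 FPKM, and TIPARP, a feedback inhibitor of that receptor, at 5.10, 5.42 and 24.8 FPKM. All 3 were at least 2-fold higher, 60% of the 5 aryl hydrocarbon receptor genes compared, against 4.11% of all genes. The other 2 lay below 0. One of those is AHRR, a repressor of the receptor, at 0.88, 1.51 and 0.85 FPKM, a log2 difference of -0.44. Of 20 NRF2 targets, which protect against oxidants, 1 (5.00%, near the 4.11% of all genes) was at least 2-fold higher and 13 lay above 0. That gene was GCLC, the catalytic subunit of the first enzyme of glutathione synthesis, at 11.1, 16.6 and 47.7 FPKM. Among 9 aldo-keto reductases AKR1C2 alone (11.1% of them) was 2-fold higher, at 2.82, 13.34 and 43.1 FPKM. AKR1C1 and AKR1C2 are near-identical copies, and their sum was 14.1, 42.4 and 98.3 FPKM, a log2 difference of 1.19. That sum does not depend on how reads were split between AKR1C1 and AKR1C2, but other members of the family were not summed.

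Inhibitors of cyclin-dependent kinases differed in both directions. Of 7 compared, 2 (28.6%, against 4.11% of all genes) were at least 2-fold higher in the HKR3 library and 2 (28.6%, against 1.38%) lower. CDKN1A was at 15.8, 33.7 and 8.71 FPKM, a log2 difference of -1.84. It was 3.58-fold lower in the HKR3 library than in the library labelled siTERT on the FPKM + 1 scale, with the control between them. CDKN1C, which encodes p57, was at 6.70, 8.02 and 2.41 FPKM, a log2 difference of -1.40. CDKN1B, which encodes p27, was at 27.4, 27.1 and 66.3 FPKM, a log2 difference of 1.26. CDKN2B, which encodes the CDK4 and CDK6 inhibitor p15 and is induced by TGF-beta, was at 4.24, 10.8 and 34.4 FPKM, a log2 difference of 1.59. CDKN1A and CDKN2B were thus both higher in the library labelled siTERT than in the control, but on opposite sides of it in the HKR3 library.

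GADD45A, PLK2 and the BCL2 family member BBC3 were also at least 2-fold higher in the HKR3 library. GADD45A, a stress sensor upstream of JNK and p38, was at 18.3, 21.0 and 148 FPKM, a log2 difference of 2.76. PLK2, a polo-like kinase, was at 0.75, 1.03 and 12.5 FPKM, a log2 difference of 2.73. BBC3, which encodes the death activator PUMA, was at 3.48, 3.37 and 16.1 FPKM, a log2 difference of 1.96. In all 3 the HKR3 library was high and the other libraries were close to each other. Within the BCL2 family, 4 of 13 (30.8%, against 4.11% of all genes) were at least 2-fold higher, namely BBC3, PMAIP1, BIK and BMF, which are pro-apoptotic BH3-only proteins. The family's median was 0.13 and 6 of the 13 lay below 0, including other BH3-only members named after their values were seen. BID was at 43.2, 44.8 and 25.4 FPKM, a log2 difference of -0.80, and BCL2L11, which encodes BIM, had one of -0.29. BMF was at 1.68, 1.73 and 17.1 FPKM, a log2 difference of 2.73. The summed level of the family was 751, 777 and 717 FPKM.

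DNA replication genes were lower as a group in the HKR3 library. Of 44 compared, 41 lay below 0 and 4 were at least 2-fold lower, 9.09% against 1.38% of all genes, with a median of -0.42. UHRF1, which brings the maintenance DNA methyltransferase to replicated DNA, was at 22.2, 21.2 and 7.70 FPKM, a log2 difference of -1.35. PCNA, the sliding clamp of the replication fork, was at 191, 168 and 73.8 FPKM, a log2 difference of -1.17. MCM5, a helicase subunit, was at 85.9, 74.6 and 34.9 FPKM, and POLA2, a primase complex subunit, at 12.1, 9.57 and 3.87 FPKM. For all 4 genes the HKR3 library was the lowest and the control was nearer to the library labelled siTERT. MCM5 fell short of 2-fold, at -0.96, when the libraries were scaled to the same sum. CCNE1, the cyclin of entry into S phase, was at 9.58, 7.85 and 2.96 FPKM, a log2 difference of -1.16. E2F2, an activator of S phase genes, was at 6.93, 6.35 and 1.84 FPKM, a log2 difference of -1.37. The 12 E2F and RB family members compared, E2F2 included, were mixed, with 5 above 0 and a median of -0.13.

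Mitotic genes did not go with the replication genes. Of 37 compared, 29 lay above 0, with a median of 0.25. Their summed level was 2054, 1648 and 1927 FPKM, so the library labelled siTERT had the lowest sum and the control the highest. CDC20, an activator of the anaphase-promoting complex, was at 158, 132 and 237 FPKM, a log2 difference of 0.84. CCNB1, the mitotic cyclin, was at 133, 101 and 166 FPKM, a log2 difference of 0.71. CDK1, its kinase, was the one member 2-fold apart and it was lower, at 55.2, 51.0 and 20.4 FPKM, a log2 difference of -1.28. Of 23 homologous recombination and Fanconi genes none was 2-fold apart and 20 lay below 0, with BRCA1 at 12.5, 11.95 and 6.74 FPKM. Replication-dependent histones, whose messages normally lack a poly(A) tail, had 8 of 33 (24.2%, against 4.11% of all genes) at least 2-fold higher and a median of 0.81. Their summed level was 508, 348 and 512 FPKM, so the library labelled siTERT had the lowest sum, which a few abundant members carry. The 2-fold higher members were placed differently. H2BC21 was at 3.17, 1.88 and 10.4 FPKM, with the control nearer to the library labelled siTERT, and H4C8 was at 4.44, 2.18 and 9.06 FPKM, with the control between. H2AC6 was at 36.4, 20.3 and 53.6 FPKM, with the control nearer to the HKR3 library. Histone genes are short, near-identical copies whose reads can be split in different ways.

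MYCN, the neuroblastoma paralog of MYC, was at 50.2, 38.4 and 12.1 FPKM, a log2 difference of -1.58. CCR6, the receptor of the chemokine CCL20, was at 19.2, 20.7 and 5.67 FPKM, a log2 difference of -1.70. CPB2, a liver carboxypeptidase that slows clot lysis, was at 28.3, 24.7 and 8.01 FPKM, a log2 difference of -1.51. The HKR3 library was the lowest in each. SEMA6B, a transmembrane semaphorin, was at 23.3, 24.9 and 7.69 FPKM, and NRTN, the neurotrophic factor neurturin, at 3.21, 3.16 and 0.33 FPKM. YJEFN3 was at 1.93, 4.61 and 0.40 FPKM, a log2 difference of -2.01 with the control between.

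Genes of amino acid supply were lower while some stress regulators were higher. Of 14 genes of serine, asparagine and proline synthesis 12 lay below 0, with a median of -0.53, and GPT2, an alanine transaminase, was 2-fold lower at 32.5, 30.1 and 13.7 FPKM. Its log2 difference of -1.08 was -0.97 when the libraries were scaled to the same sum. PHGDH, which commits glucose carbon to serine, was at 236, 178 and 106 FPKM, a log2 difference of -0.74. PSAT1, which follows it in that route, was at 386, 283 and 165 FPKM, a log2 difference of -0.78. In these genes the library labelled siTERT lay between the control and the HKR3 library. Of 17 amino acid transporters 2 (11.8%, against 1.38% of all genes) were 2-fold lower and 14 lay below 0. SLC7A5, the large neutral amino acid exchanger, was at 161, 154 and 69.7 FPKM, and SLC6A14 at 56.1, 33.5 and 14.7 FPKM, with log2 differences of -1.13 and -1.14. Of 20 aminoacyl-tRNA synthetases 18 lay below 0 and none was 2-fold apart.

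Stress regulators downstream of ATF4 were divided. Of 16 compared, 3 (18.8%, against 4.11% of all genes) were at least 2-fold higher and 2 (12.5%, against 1.38%) lower, with a median of 0.17. PPP1R15A, which encodes GADD34 and restores translation by dephosphorylating eIF2 alpha, was at 21.7, 28.1 and 167 FPKM, a log2 difference of 2.53. DDIT3, which encodes CHOP, was at 11.5, 14.95 and 47.1 FPKM, a log2 difference of 1.59. CHAC1, which degrades glutathione and is a common readout of ATF4, was at 22.4, 16.5 and 3.67 FPKM, a log2 difference of -1.91. STC2, a secreted glycoprotein, was at 45.1, 40.9 and 19.3 FPKM, a log2 difference of -1.04 that was -0.94 when the libraries were scaled to the same sum. PPP1R15A and DDIT3 were thus highest, and CHAC1 and STC2 lowest, in the HKR3 library.

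**Figure D3:**
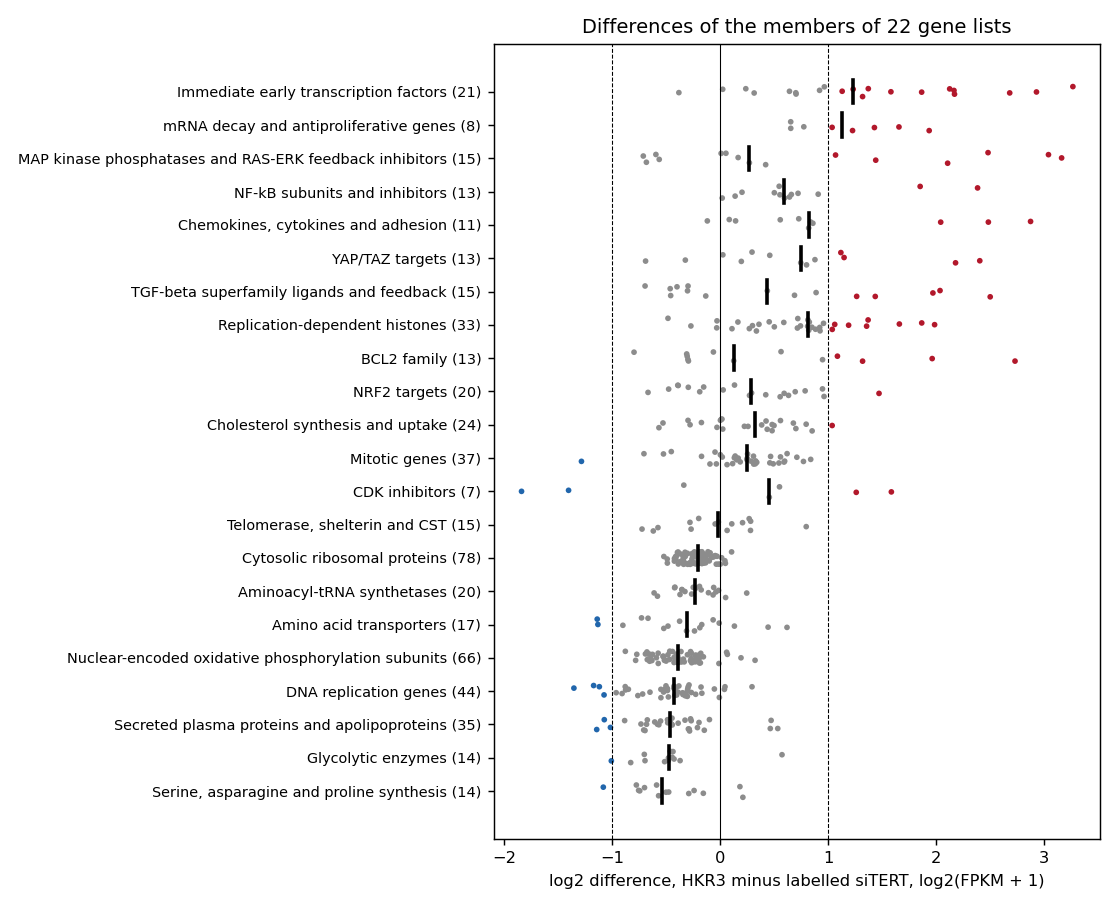
Log2 difference of each compared member (points) of 22 gene lists, with the number compared in parentheses, the list median (black bar) and dashed lines at 2-fold. Immediate early and mRNA decay genes have medians of 1.23 and 1.13, while DNA replication, plasma protein, glycolytic and amino acid synthesis genes lie mostly below 0.

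Messages of secreted liver proteins were mostly lower in the HKR3 library, and those of liver transcription factors were mixed. Of 35 secreted plasma proteins and apolipoproteins 32 lay below 0 and 3 (8.57%, against 1.38% of all genes) were at least 2-fold lower, and the median was -0.46. APOA1, the chief apolipoprotein of HDL particles, was at 1461, 1575 and 713 FPKM, a log2 difference of -1.14. HP, which encodes haptoglobin, was at 51.1, 54.0 and 26.2 FPKM, and PLG, which encodes plasminogen, at 24.9, 25.4 and 11.5 FPKM. Both were under 2-fold apart when the libraries were scaled to the same sum, at -0.91 and -0.97. Fibrinogen went the other way, with a summed level of its 3 chains of 509, 518 and 727 FPKM. Of 16 liver-enriched transcription factors 10 lay above 0, with a median of 0.38. NR5A2, a nuclear receptor of bile acid and cholesterol genes, was at 6.07, 7.77 and 20.2 FPKM, a log2 difference of 1.28. FOXA2, a pioneer factor of liver genes, was at 30.4, 33.4 and 65.0 FPKM, whereas PPARA, the receptor of fatty acid oxidation genes, was at 5.57, 5.53 and 2.45 FPKM.

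Abundant messages of energy metabolism and translation were lower by small amounts. Abundant genes of any kind also tended to be lower. In the highest of 5 equal groups of all genes by mean FPKM the median was -0.17. The part that abundance had in the lists below, or in the plasma protein and amino acid lists above, was not tested. Of 66 nuclear-encoded oxidative phosphorylation subunits 62 lay below 0, none by 2-fold, with a median of -0.39. Of 14 glycolytic enzymes 13 lay below 0, with a median of -0.48, and LDHA, lactate dehydrogenase, was at 783, 815 and 503 FPKM. Of 78 cytosolic ribosomal proteins 73 lay below 0, with a median of -0.20. All 7 metallothioneins compared lay below 0, with a median of -0.56. The medians of these lists were -0.28, -0.36, -0.09 and -0.45 when the libraries were scaled to the same sum. Of 24 cholesterol genes 18 lay above 0 with a median of 0.32, and INSIG1, which holds back sterol sensing, was at 33.8, 39.6 and 82.4 FPKM.

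Genes of telomere biology showed small differences. Of 15 genes of telomerase, shelterin and the CST complex none was 2-fold apart and the median was -0.02, which turned to 0.10 when the libraries were scaled to the same sum. TERF2IP, the shelterin protein RAP1, was at 41.0, 35.2 and 61.9 FPKM, a log2 difference of 0.80. ACD, which encodes TPP1 of shelterin, was at 27.0, 20.7 and 12.1 FPKM, a log2 difference of -0.72. These were the farthest apart in the group, in opposite directions. Of 4 compared genes reported elsewhere as ZBTB48 targets none was 2-fold apart. MTFP1, a mitochondrial fission protein whose promoter ZBTB48 is known to bind, was at 46.4, 50.9 and 33.0 FPKM, a log2 difference of -0.61.

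The control was not used to form the difference, so its level shows on which side each gene stood out. For 542 of the 602 genes (90.0%) the control lay within 1.5-fold of the library labelled siTERT and farther from the HKR3 library. These were 408 of 451 higher and 134 of 151 lower genes. The share of all compared genes within that bound is not given, so the 90.0% has no baseline here. For 13 genes the control lay instead within 1.5-fold of the HKR3 library, so by these entries the library labelled siTERT stood out. For 7 the control lay between both. SAA4, a serum amyloid A apolipoprotein named after its values were seen, was one of the 13, and its sum with an overlapping readthrough gene was 26.8, 61.9 and 28.1 FPKM. SIK1, described below, was another, but summed with a copy it was at 26.0, 25.7 and 40.9 FPKM. In that sum the library labelled siTERT did not stand out. CDKN1A, HABP2 and YJEFN3 were the 3 lower genes with the control between. HABP2, a plasma serine protease, was at 9.99, 15.6 and 5.85 FPKM, a log2 difference of -1.28.

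For a further 36 genes the library labelled siTERT was more than 1.5-fold from the control in the same direction as the HKR3 library and lay between them, 32 of them higher genes. CXCL8, JUN, ATF3, CXCL2, TNFAIP3, RELB, CYP1A1, AKR1C2, CDKN2B and BMP2 above were among the 32. ANKRD1, a YAP target and stretch-responsive cofactor, was another, at 0.12, 0.93 and 9.23 FPKM, a log2 difference of 2.41. SLC6A14 was among the 4 lower genes.

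**Figure D4:**
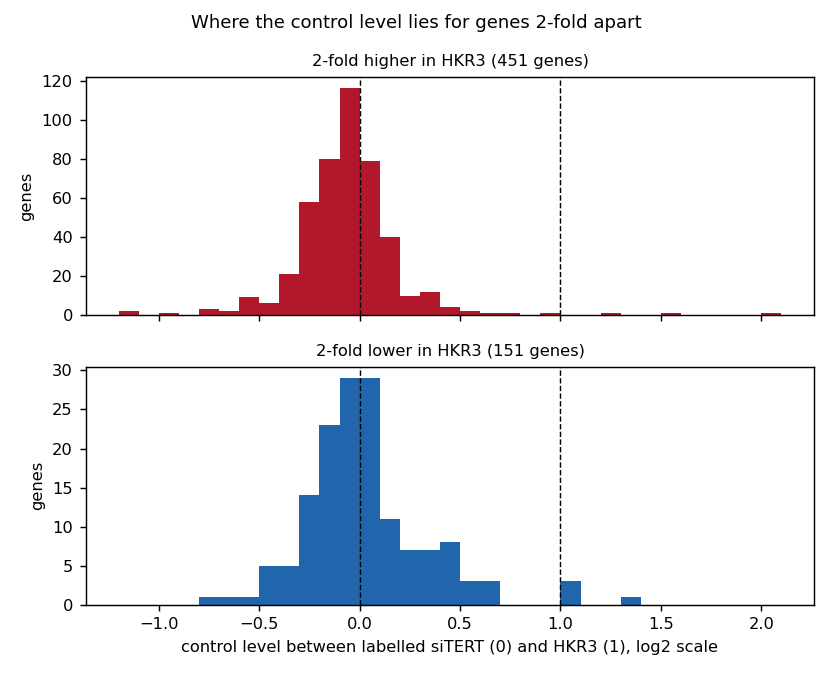
Number of genes by the place of the control level between the library labelled siTERT (0) and the HKR3 library (1), on the log2(FPKM + 1) scale, for the 451 higher genes (top) and the 151 lower genes (bottom). Both sets peak at 0, with medians of -0.07 and -0.02, and few genes lie near 1.

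Base composition went with the differences. The median GC content of the transcripts was 46.0% for the higher, 57.4% for the lower and 48.7% for all genes. From the lowest to the highest of 5 equal groups by GC content the median log2 difference went from 0.19 to -0.20. Spearman's rho with GC content was -0.29 over 10949 genes, which share the same libraries and are not independent. In the lowest group 123 genes were higher and 10 lower, and in the highest 67 and 64. Removing the trends with length and GC left 434 higher and 114 lower genes, and 458 of the 602 genes stayed at least 2-fold apart. The medians of the immediate early, DNA replication and plasma protein groups were then 1.44, -0.43 and -0.38, and APOA1 was at -0.79. The part that composition had in single genes was not tested.

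**Figure D5:**
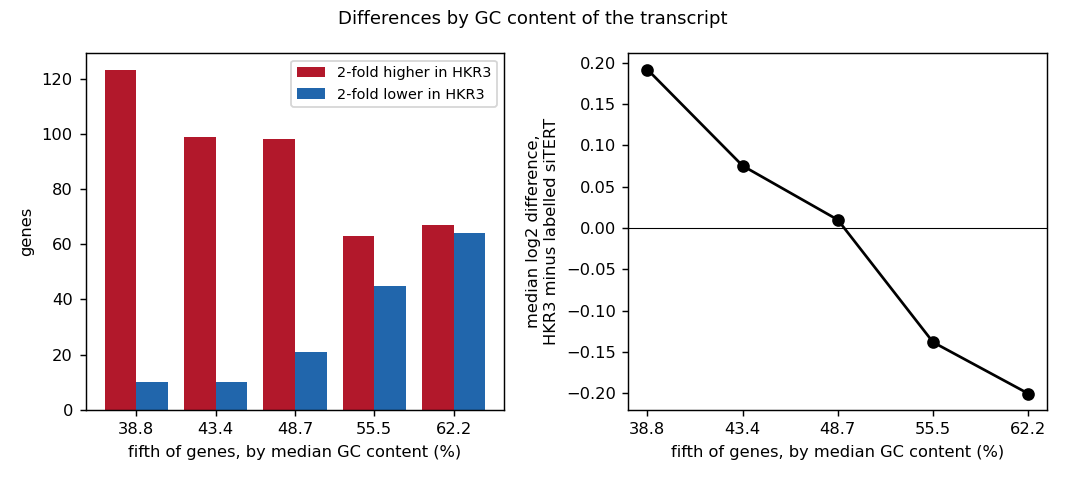
Left, number of genes at least 2-fold higher (red) or lower (blue) in the HKR3 library in 5 equal groups of genes by GC content, labelled by their medians. Right, median log2 difference of each group, which goes from 0.19 at 38.8% GC to -0.20 at 62.2%.

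Some of the lower values belong to genes that share sequence with another entry. At least 50% of the sequence was shared by 10 of 150 lower genes, 10 of 450 higher genes and 1.86% of all genes. SIK1, a kinase induced by salt, was at 0.02, 3.29 and 0.11 FPKM, a log2 difference of -1.95. Summed with its copy ENSG00000275993 it was at 26.0, 25.7 and 40.9 FPKM, and the log2 difference was 0.65. PLA2G4B, a phospholipase, had a log2 difference of -1.496, and summed with its readthrough transcript it was -0.01. Of 18 such pairs 5 stayed at least 2-fold apart as a sum. The SIK1 and PLA2G4B differences therefore depend on how reads were divided between entries.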

How the data were processed

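RNA of 3 Hep3B libraries, 1 each for control, HKR3 and siTERT, was sequenced after poly(A) library preparation with a stranded kit, per the labels' protocols. The deposited table holds FPKM per Ensembl gene as the authors calculated it. STAR 2.5.0, Cufflinks, Cuffdiff 2.2.1 and the hg19 build are named in the submitters' processing notes. The sources used here do not state the strand setting, annotation release or filters, so reads of antisense and overlapping genes may not be separated. FPKM holds no counts, and about 1.02e+07, 1.08e+07 and 1.12e+07 fragments in the control, siTERT and HKR3 libraries were estimated from the steps between low values of genes.

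Symbols were matched for 19119 of 19869 entries, 4 small RNAs were left out and 10 entries sharing a symbol were summed. Genes whose mean over the 3 libraries reached 1 FPKM were compared on log2(FPKM + 1), and fold changes of low genes are understated on that scale. A size of 2-fold replaced a test, since 1 library per group allows no p-value, SD or SE. The control was called near a library when within 1.5-fold on the same scale. Transcript length, GC content, 3′ UTRs and shared 31-base words came from GENCODE 29, and promoter windows from RefSeq, both on GRCh38. The processing notes name hg19, so features but no coordinates were joined to the deposited table by gene. Whether all entries of that table exist in hg19 was not checked. Python 3.11.15, pandas 2.3.3, numpy 2.4.6 and matplotlib 3.10.9 were used, and the scripts were tested on simulated data.

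The named genes were ZBTB48, TERT, JUN and CDKN1A, with some other genes not reported here, the 15 highest and 15 lowest genes with a symbol, up to 4 members of each list with the largest difference, and 10 genes with the control between. The members and lists were chosen with earlier results of these data known, so no list is independent evidence. Alternatives were pseudocounts of 0.1 and 5 FPKM, other expression minimums, other scalings, removal of length and GC trends, removal of genes with shared sequence, and a tighter bound for the control.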

Additional observations from a re-analysis of the deposited data

How the results depend on the processing

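No paired analysis was possible because each group has 1 library and no replicate could be left out. The 602 genes at least 2-fold apart became 969 with a pseudocount of 0.1 FPKM and 203 with 5 FPKM, and all 203 were among the 602. With 5 FPKM, 169 were higher and 34 lower in the HKR3 library, and with 0.1 FPKM 323 were lower. Scaling to the same sum left 98 lower genes. Leaving out ZBTB48 before that scaling, chosen after seeing the data, left 94. The control was near the library labelled siTERT for 820 of 969 and 190 of 203 genes under these pseudocounts. Counts under the other alternatives stayed within 1.5 times. Many of the 209 named genes were under 2-fold apart from the start and could not fall under it. Of the others, 36 fell under 2-fold with a pseudocount of 5 FPKM, 9 with trends removed and 7 with the same sum. In the other direction, 8 named genes rose to at least 2-fold with trends removed and 8 with the same sum. List medians changed sign for ribosome biogenesis genes (-0.02 to 0.09) and endoplasmic reticulum chaperones (-0.06 to 0.05) with the same sum. They also did for circadian clock genes (0.10 to -0.03), annexins and vanins (0.03 to -0.03) and adhesion and mesenchymal transition genes (0.01 to -0.08) with trends removed. At a minimum of 5 FPKM the interferon-stimulated median was -0.03, against 0.20, and the telomerase and shelterin median 0.11, against -0.02. With no expression minimum the median of cytochromes P450 outside CYP1 was 0.08, against -0.28, and those of the EGF receptor, interferon-stimulated and adhesion lists were 0. The cause of these shifts was not tested.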

Other observations

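Further lists had some members apart, against 4.11% higher and 1.38% lower among all genes. Of 14 hypoxia genes ADM, the vasodilator adrenomedullin, was at 11.999, 12.6 and 41.3 FPKM in the control, the library labelled siTERT and the HKR3 library, a log2 difference of 1.63. KDM3A, a histone demethylase, was the other of the 2 members (14.3%) at least 2-fold higher. SLC2A1, the glucose transporter GLUT1, was at 23.1, 27.3 and 13.33 FPKM, a log2 difference of -0.98. Of 12 adhesion and mesenchymal transition genes 4 (33.3%) were at least 2-fold higher and 1 (8.33%) lower. OCLN, the tight junction protein occludin, was at 13.1, 14.9 and 44.2 FPKM, and ZEB1, a repressor of epithelial genes, at 2.72, 2.70 and 8.69 FPKM. An epithelial gene and its class of repressor were thus both highest in the HKR3 library. DKK1, a secreted Wnt inhibitor, was at 55.6, 46.3 and 21.7 FPKM and was the 1 of 10 Wnt genes (10%) 2-fold apart, at -1.06.

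Of 13 heat shock genes BAG3, a co-chaperone of selective autophagy, was the 1 (7.69%) at least 2-fold higher, at 14.2, 12.01 and 29.7 FPKM. Of 14 interferon-stimulated genes compared, IFIT2 was the 1 (7.14%) at least 2-fold higher, at 0.30, 0.26 and 3.19 FPKM, with a median of 0.20 for the list. Both shares rest on 1 gene, against 4.11% of all genes. ANXA6, an annexin of endosomes, was at 32.2, 23.6 and 9.40 FPKM, a log2 difference of -1.24, opposite to ANXA1. The median was -0.27 for 14 fatty acid synthesis genes, none of them 2-fold apart. The medians were 0.10 for 12 circadian clock genes, -0.28 for 5 cytochromes P450 outside the CYP1 family (0.08 with no expression minimum) and -0.18 for 3 cholangiocyte markers, and -0.34 for 8 G1 cyclins and kinases.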
